A study of Homo sapiens with 2 samples.

Results

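A set of 10 genes of translation initiation was followed through the MSI2 peak lists: EIF1, the eIF2 subunit genes EIF2S1, EIF2S2 and EIF2S3, the eIF3 subunit genes EIF3A, EIF3B and EIF3E, and EIF5, EIF5A and EIF5B. Their peaks were taken by the Ensembl gene ID in each peak's name, which gave 77 of the 25920 peaks of replicate 1 and 72 of the 25243 peaks of replicate 2, under 10 of 8801 gene IDs. The RNA contacts of Musashi-2 (MSI2) were mapped by CLIP-seq, in which ultraviolet light fixes a protein to the RNA it touches and an antibody then recovers it. Both libraries came from the acute promyelocytic leukaemia cell line NB4, crosslinked on ice at 400 mJ/cm2 and recovered with an Abcam antibody to MSI2, and they are replicates 1 and 2 of 1 group. Libraries from another antibody, from input RNA or from cells without MSI2 were not analysed here. The values therefore describe how far these libraries repeat each other, and MSI2 binding and repeatable background cannot be told apart. The files hold gene IDs without names. The symbols used here came with the choice of the genes, and the peaks lay on the chromosome that RefSeq gives for the symbol in 10 of 10 genes.

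Initiation begins when eIF2, a GTP-binding complex of an alpha (EIF2S1), a beta (EIF2S2) and a gamma subunit (EIF2S3), brings the initiator tRNA to the small ribosomal subunit. EIF1 guards the choice of the start codon, eIF3 is the large complex that holds the small subunit and the other factors together, and EIF5 stimulates GTP hydrolysis by eIF2. EIF5B then joins the large subunit, and EIF5A, despite its name, acts mainly in elongation and termination and carries the modified amino acid hypusine. Musashi proteins bind short UAG-containing RNA elements and are known to alter the translation of the mRNAs they bind. The sequence under the peaks is not shown, because no genome of the peaks' build (hg19) was used here.

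MSI2 peaks were present under all 10 gene IDs in replicate 1 and under 9 in replicate 2, and the same 9 genes carried at least 1 peak at the same place in both libraries. EIF2S2 was the exception, with 1 weak peak in replicate 1 and none in replicate 2. A peak counted as shared if the other list held a peak on the same strand that covered at least 1 nt of it. Of all gene IDs with peaks in either library, 63.1% had peaks in both and 45.5% had a shared peak. Genes with many peaks reach these marks more easily. The 9 genes had 5 to 13 peaks in replicate 1 and 3 to 15 in replicate 2. The median gene ID had 2 peaks in each list. Nearly all other gene IDs with peak numbers in the ranges of the 9 genes also had a shared peak. Each peak name ends in a whole number of 3 or more, called its tally here, that behaves like a number of reads although no header or label explains it. Tallies of the 10 genes summed to 486 in replicate 1 and 426 in replicate 2, which was 31.2 of every 10000 in the whole list of replicate 1 and 31.9 in that of replicate 2.

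**Figure D1:**
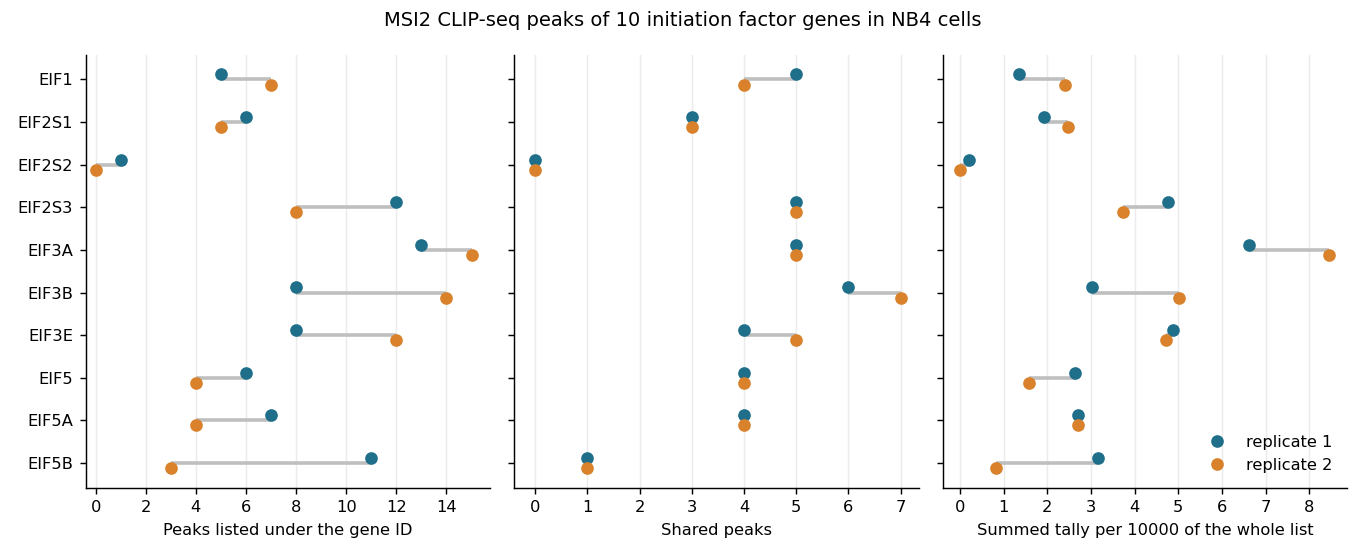
Number of peaks (left), number of shared peaks (middle) and summed tally per 10000 of the whole list (right) for each of the 10 genes, with 1 point per replicate and a grey line joining them. EIF3A has the highest tally share in each replicate, EIF2S2 has no shared peak, and EIF5B shows the widest gap in peak number, 11 against 3.

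EIF1 (ENSG00000173812.6, chromosome 17, plus strand) had its peaks within 2.63 kb, between positions 39845155 and 39847789 of hg19, as are all positions here. All 5 of its peaks in replicate 1 were shared, as were 4 of its 7 peaks in replicate 2. Its strongest site lay at the 3′ end of this stretch, at 39847678 to 39847785 with a tally of 7 in replicate 1, and at 39847711 to 39847789 with a tally of 9 in replicate 2. At 39847034 to 39847067 replicate 2 had 1 peak with a tally of 5, where replicate 1 had a pair of touching peaks with tallies of 3 each. Tallies of EIF1 summed to 21 and 32. After scaling each list to its own total, replicate 2 over replicate 1 gave a log2 ratio of 0.83. EIF1 thus had the largest relative gain of tallies in replicate 2 among the 9 genes, and lay above the 95th percentile (0.76) of the comparable genes defined below. Its shared peaks had a summed tally of 21 in each list. The unscaled rise lay in its 3 unshared peaks of replicate 2, with low tallies of 3, 5 and 3.

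The eIF2 genes differed widely among themselves. EIF2S3, the gamma subunit that binds GTP and the initiator tRNA, had 12 peaks in replicate 1 and 8 in replicate 2, EIF2S1 had 6 and 5, and EIF2S2 had 1 and 0. In EIF2S3 (ENSG00000130741.5, chromosome X, plus strand) 5 peaks of each replicate were shared. Its strongest site, at 24094890 to 24094957, had tallies of 14 and 11. The other shared sites of EIF2S3 lay upstream of it: their tallies were 8 and 9 at 24075796 to 24075872, 5 and 4 at 24078205 to 24078219, 6 and 5 at 24080548 to 24080601, and 5 and 6 at 24080646 to 24080688. All 5 sites differed by at most 1.27-fold between the replicates.

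EIF2S1 (ENSG00000134001.8, chromosome 14, plus strand) encodes the alpha subunit, whose phosphorylation by stress kinases lowers initiation. It had 3 shared peaks in each list. The site at 67847376 to 67847484 had tallies of 11 and 12, with p-values in the authors' lists of 3.16e-08 and 2.51e-08, and the peaks of both replicates began at the same nucleotide. A site near the 3′ end of the stretch, at 67851165 to 67851233, had a tally of 6 in replicate 1 and 11 in replicate 2. A narrow site at 67843298 to 67843308 had a tally of 3 in each list, and the inner intervals that the authors mark within each peak were centred on the same position. EIF2S2 (ENSG00000125977.6), the beta subunit gene, had only a peak of 32 nt with a tally of 3 at 32677640 to 32677671 of chromosome 20, minus strand, with a p of 0.026. In all, 2056 gene IDs, or 23.4%, had a single peak in the lists together.

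The eIF3 genes held the strongest sites of the set. EIF3A (ENSG00000107581.7, chromosome 10, minus strand), the largest subunit of the complex, had one of them at 120801897 to 120801994 in replicate 1 and 120801901 to 120801995 in replicate 2. Its tally was 37 in replicate 1 and 51 in replicate 2, and the authors' lists gave it p-values of 1.77e-27 and 3.64e-40. The inner intervals of these peaks were centred 1 nt apart. By tally they ranked 115 among the 25920 peaks of replicate 1 and 27 among the 25243 of replicate 2. This site alone carried 35.9% of the EIF3A tallies in replicate 1 and 45.1% in replicate 2, and the next peak of the gene had a tally of 8 in replicate 1 and 12 in replicate 2. That next peak was itself shared, at 120832412 to 120832503. Replicate 2 had a further peak 182 nt to the 3′ side of the strong site, at 120801673 to 120801714, with a tally of 8 and no partner. The remaining shared sites of EIF3A had tallies of 6 and 5 at 120824981 to 120825034, 7 and 4 at 120810798 to 120810834, and 7 and 3 at 120794411 to 120794457, the 3′-most of the gene. In RefSeq (GRCh38.p14) a pair of snoRNA genes, SNORA19 and LOC124900296, lie inside EIF3A and SNORA28 lies inside EIF5. Whether a peak falls on them was not tested, because the peaks are placed on hg19.

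EIF3E (ENSG00000104408.5, chromosome 8, minus strand) had a close pair of strong sites. At 109248390 to 109248433 the tally was 15 in each replicate, and the peaks shared their lower end. At 109247255 to 109247332 the tally was 24 in replicate 1 and 11 in replicate 2, so this was the strongest EIF3E peak in replicate 1 only. Upstream of them, at 109252187 to 109252225, tallies were 6 and 9. Replicate 1 had a peak at the 5′ end with a tally of 9, at 109254062 to 109254127, and a peak with a tally of 8 at 109243169 to 109243229, and neither had a partner in replicate 2. Replicate 2 in turn had 6 peaks with tallies of 3 or 4 between 109214147 and 109229690, where replicate 1 had none. All EIF3E peaks with a tally of 10 or more thus recurred, and most of the weaker ones did not.

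EIF3B (ENSG00000106263.13, chromosome 7, plus strand), a core subunit, had 8 peaks in replicate 1, of which 6 were shared, and 14 in replicate 2, of which 7 were shared. Its strongest site lay at 2400345 to 2400468. There replicate 1 had 1 peak of 121 nt with a tally of 18, and replicate 2 had a pair of touching peaks with tallies of 8 and 14 that began at the same nucleotide and ended 3 nt further. A site at the 5′ end of the stretch, 2395011 to 2395056, had tallies of 7 and 6, and it was the only shared site of the 9 genes that set the 5′ end of a gene's stretch. The 7 unshared peaks of EIF3B in replicate 2 had tallies of 3 or 4, and the 2 unshared peaks of replicate 1 likewise had tallies of 3 and 4.

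EIF5, EIF5A and EIF5B gave an uneven picture. EIF5 (ENSG00000100664.6, chromosome 14, plus strand) had 6 peaks in replicate 1 and 4 in replicate 2, and all 4 of replicate 2 were shared. Its shared sites had tallies of 4 and 4 at 103807519 to 103807592, 12 and 5 at 103807872 to 103807953, 9 and 8 at 103808139 to 103808209, and 8 and 4 at 103809170 to 103809232. The strongest site of EIF5 therefore differed between the lists. EIF5A (ENSG00000132507.13, chromosome 17, plus strand) had 7 peaks in replicate 1 and 4 in replicate 2, again with all 4 of replicate 2 shared. Its strongest site, at 7215250 to 7215341, had tallies of 14 and 16, and an upstream site, at 7213023 to 7213094, had tallies of 10 and 8. Summed tallies of EIF5A were 42 and 36, which scaled to 2.70 and 2.69 per 10000.

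EIF5B (ENSG00000158417.5, chromosome 2, plus strand), the GTPase of subunit joining, repeated least among the 9 genes. It had 11 peaks and a summed tally of 49 in replicate 1, and 3 peaks and a summed tally of 11 in replicate 2. The log2 ratio of its scaled tallies, replicate 2 over replicate 1, was -1.94. Its single shared site, at 100013250 to 100013334, had a tally of 8 in replicate 1 and 3 in replicate 2. The other peak with a tally of 8 in replicate 1, at 100015935 to 100015992, ended 83 nt before the nearest peak of replicate 2, at 100016076 to 100016119 with a tally of 5. The 7 peaks of replicate 1 upstream of 100013223 had no peak of replicate 2 within 1 kb.

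**Figure D2:**
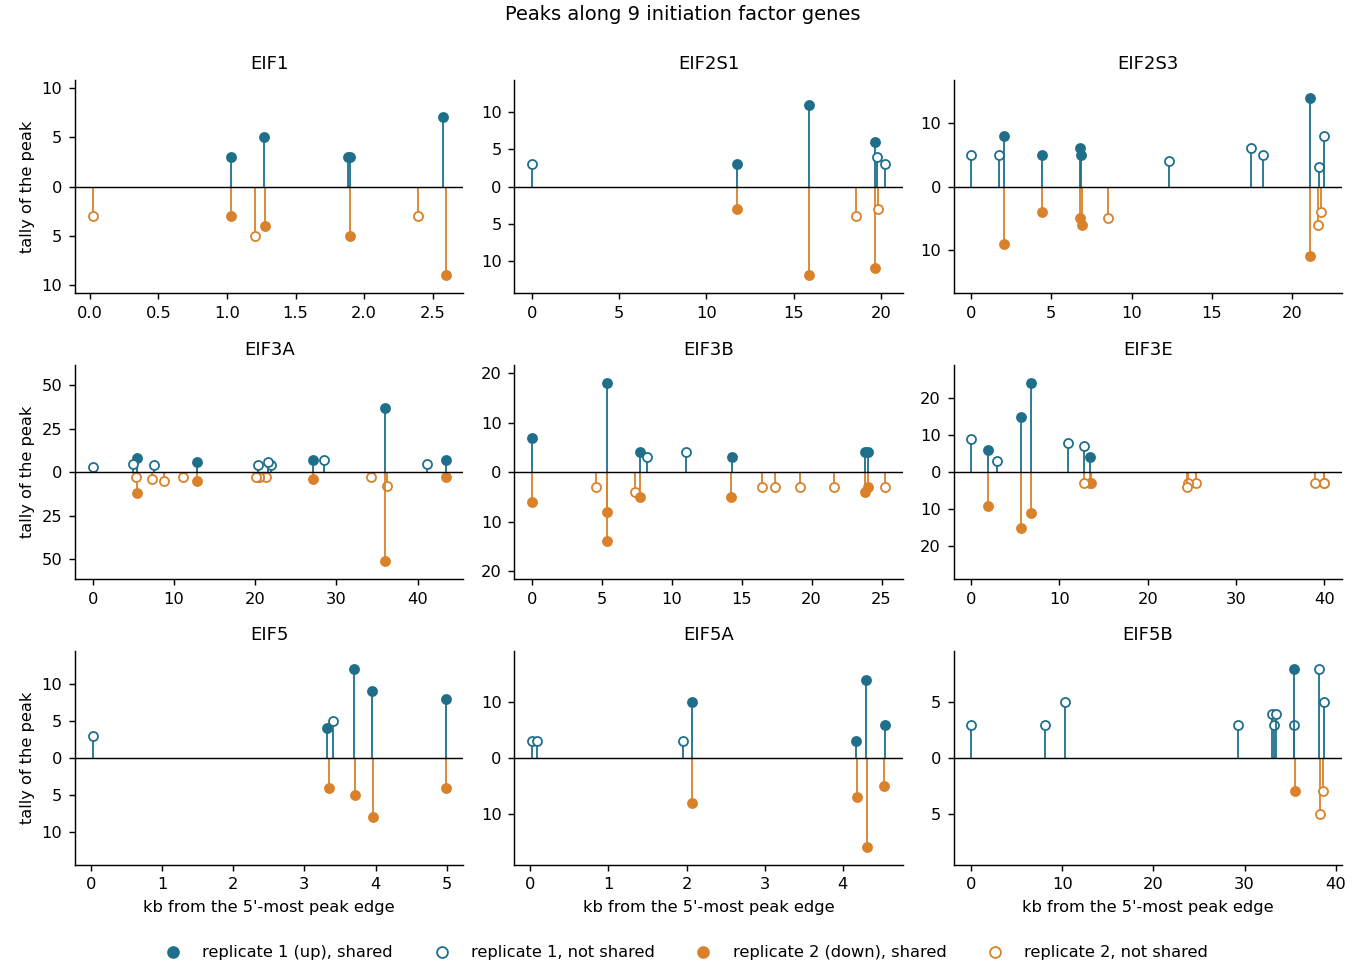
Peaks of the 9 genes with peaks in both lists, drawn by distance in kb from the 5′-most peak edge of the gene (x axis, transcript direction left to right) and by tally (y axis), replicate 1 upward and replicate 2 downward. Filled points are shared peaks and open points are not; the tall EIF3A site (37 and 51) stands at the same place in each list, and most open points are low.

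As a set, the genes of initiation had 37 shared peaks of 77 in replicate 1, or 48.1% (95% exact Clopper-Pearson interval 36.5% to 59.7%), where 35.7% of the whole list was shared. In replicate 2 they had 38 of 72, or 52.8% (40.7% to 64.7%), where 37.3% of the whole list was shared. Part of this gap goes with tally: peaks of the whole lists with the same tallies as the members were shared in 38.8% of cases in replicate 1 and 40.6% in replicate 2. The interval of the members includes 38.8% in replicate 1 and begins just above 40.6% in replicate 2. The intervals cover counting error only, and peaks of 1 gene are not independent of each other. Overlapping peaks joined into 36 shared sites, of which 3 had 1 peak in one list and a touching pair in the other. All partners were listed under the same gene ID.

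Member peaks with a tally of 10 or more recurred, as did most such peaks of the whole lists, and most with a tally of 3 did not. All 9 member peaks with a tally of 10 or more were shared in replicate 1, and likewise all 9 in replicate 2. In the whole lists 87.1% and 89.4% of such peaks were shared. The exact interval for 9 of 9 peaks, 66.4% to 100%, includes both of these values. Most of the strong member peaks of replicate 2 were partners of those of replicate 1, so the replicate 2 count is not a separate repeat. With a tally of 3, 6 of 22 member peaks were shared in replicate 1 and 7 of 30 in replicate 2, or 27.3% and 23.3%, where the whole lists had 11.9% and 15.5%. With a tally of 8 or 9 the members were below the whole list in replicate 1, with 5 of 9 or 55.6% against 65.7%, and above it in replicate 2, with 6 of 7 or 85.7% against 74.5%. The highest tally of an unshared member peak was 9 in replicate 1 and 8 in replicate 2. Of the unshared member peaks, 24 of 40 in replicate 1 and 28 of 34 in replicate 2 had a tally of 3 or 4. The median tally of unshared peaks was 4 in replicate 1 and 3 in replicate 2, for the members and for the whole lists alike. Of the unshared member peaks, 4 in replicate 1 and 5 in replicate 2 lay within 50 nt of a peak in the other list. That count was not made over the whole lists.

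**Figure D3:**
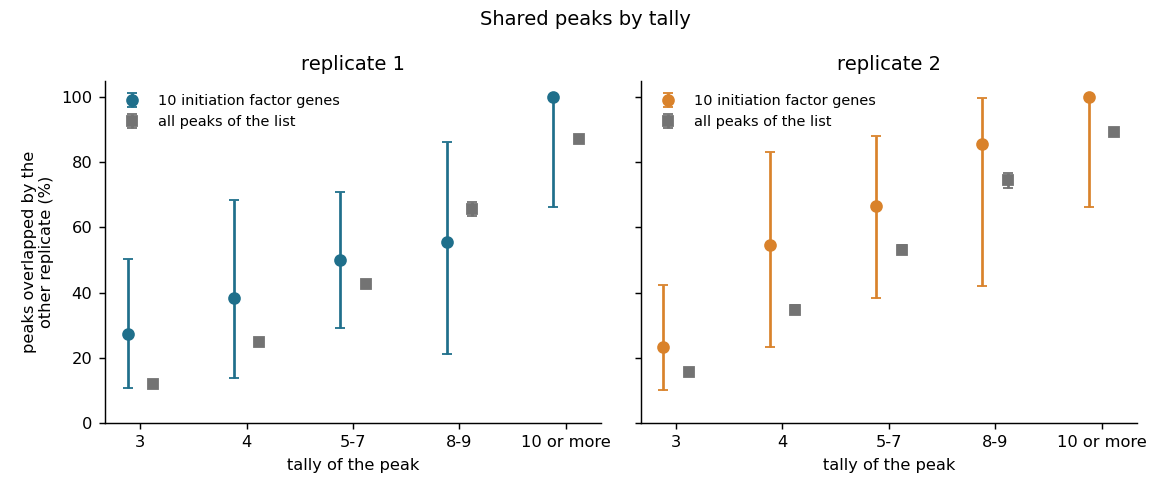
Share of peaks overlapped by the other replicate (y axis, percent) by tally (x axis) for the 10 genes (circles) and for all peaks of the list (grey squares), replicate 1 left and replicate 2 right, with 95% exact binomial intervals. The share of the 10 genes reaches 100% of 9 peaks at a tally of 10 or more in each replicate, where most are partners of each other. The intervals of the 10 genes are wide at every tally.

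Tallies of the shared sites were compared between the replicates. Of the 36 sites, 31 differed by 2-fold or less, 17 were higher in replicate 1, 14 were higher in replicate 2 and 5 were equal. These counts were not made over all shared sites of the lists, so they do not set the members apart. The 5 that differed by more than 2-fold were the EIF5B site (8 and 3), the EIF5 site with 12 and 5, the EIF3A 3′-most site (7 and 3), an EIF5A site at 7215148 to 7215204 (3 and 7) and the EIF3E site with 24 and 11. Across the 36 sites log2 tallies had a Pearson r of 0.76, and Spearman's rho was 0.64. Without the strongest EIF3A site, r was 0.68 over 35 sites. Counted by pair, without joining touching peaks, r was 0.75 and rho 0.65 over the 39 member pairs, close to 0.71 and 0.62 over all pairs of the lists. These sites share 2 libraries and 9 genes, and being shared requires a tally of at least 3 in each list, so the values are a description. The inner intervals of the 39 overlapping pairs lay a median of 6 nt apart and 28 pairs, or 71.8%, lay within 10 nt. Over all 12529 overlapping pairs of the lists the median was 7 nt and 68.2% lay within 10 nt, so the members were near the whole.

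**Figure D4:**
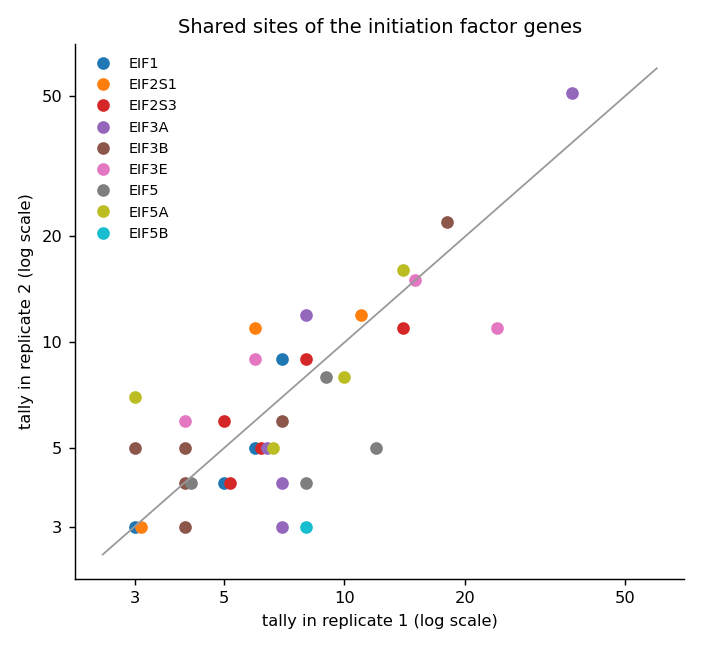
Tally of each of the 36 shared sites in replicate 1 (x axis) and replicate 2 (y axis), both on log scales, coloured by gene, with touching peaks summed, points at the same place shifted sideways and a line of equal tallies. The EIF3A site (37 and 51) is the strongest, and 31 of the 36 sites lie within 2-fold of the line. Shared sites of other genes are not drawn.

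The order of the genes by their share of each list's tallies was led by EIF3A, with 6.62 per 10000 in replicate 1 and 8.46 in replicate 2, above all other members in each list. EIF3E (4.88 and 4.71), EIF2S3 (4.76 and 3.74) and EIF3B (3.02 and 5.01) came next, and the ranges of neighbours in this order overlapped. EIF5A (2.70 and 2.69) lay below all of these in each list. EIF2S1 (1.93 and 2.47), EIF5 (2.63 and 1.57), EIF5B (3.15 and 0.82) and EIF1 (1.35 and 2.39) had overlapping ranges. The range of EIF5B also crossed those of EIF5A and EIF3B, since it lay above both in replicate 1. This order is a share of listed tallies. It may depend on the length and abundance of each RNA, which was not tested. Per kb of the stretch that holds the gene's peaks, the order was different: EIF5A had 9.20 and 7.88, EIF1 7.97 and 12.1 and EIF5 8.17 and 4.19, and the genes with long stretches had 0.284 to 3.36. No transcript lengths of hg19 were used here, so these stretches include introns.

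The 9 genes were also set beside the 1422 gene IDs, themselves included, whose peak numbers fell within their ranges in both lists. The strongest peak of the gene was the same site in both lists for 6 of the 9 genes, the exceptions being EIF3E, EIF5 and EIF5B, and for 52.3% of those gene IDs. The strongest peak held a median of 33.3% of the gene's tallies in replicate 1 and 36.4% in replicate 2, where the other gene IDs of this size had medians of 26.4% and 28.4%. Tallies in shared peaks made up a median of 66.7% and 67.2% of the gene's total, where those gene IDs had 54.5% and 60.9%. Both medians of the 9 genes lay between the quartiles of those gene IDs, 36.4% to 70.7% in replicate 1 and 40.7% to 76.9% in replicate 2. The 9 genes themselves ran from 16.3% to 100% and from 27.3% to 100%. The 5th percentile of those gene IDs was 9.78% and 9.53%, so nearly all of them had a shared peak. The log2 ratio of scaled tallies, replicate 2 over replicate 1, was above 0 in 4 genes and below 0 in 5, with a median of -0.0030, where those gene IDs had a median of -0.19 and a 5th to 95th percentile of -1.23 to 0.76. EIF5B (-1.94) and EIF1 (0.83) lay outside that range.

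Along the 6 genes with stretches of 10 kb or more, shared sites lay relatively further from the 3′ end than in the whole lists. The genes of the whole lists were not matched to these 6 for stretch length or number of peaks, so the difference is a description. Position ran from 0 at the 5′ end to 1 at the 3′ end of the stretch that holds a gene's peaks in either list, over genes with stretches of 10 kb or more and without the peaks that set its ends. Of 22 shared member peaks of replicate 1 in 6 genes, 5 lay in the 3′-most 10%, or 22.7% (7.82% to 45.4%), where 51.8% of all shared peaks did. In replicate 2 it was 6 of 26, or 23.1% (8.97% to 43.6%), where 52.6% of all shared peaks did. The median position was 0.33 in each replicate, where the shared peaks of all genes had 0.91 and 0.92. Shared peaks overlap, so the replicate 2 values come mostly from the same sites and are not a separate repeat of the replicate 1 values. Leaving out end-setting peaks dropped the 3′-most shared peak of EIF3A and the 5′-most of EIF3B in replicate 1. Their partners in replicate 2, at 0.9994 and 0.0009, were counted. In EIF3E all 4 shared peaks of replicate 1 lay between 0.05 and 0.34, and there the 3′ end of the stretch was set by replicate 2 peaks with a tally of 3. EIF2S3 had 4 of its 5 shared peaks between 0.09 and 0.31. EIF2S1 (0.58 to 0.97) and the single EIF5B site (0.91) lay in the 3′ part. EIF1, EIF5 and EIF5A, left out for their shorter stretches, had median positions of 0.71, 0.74 and 0.91 in replicate 1. Unshared member peaks had 19.2% and 27.6% in the 3′-most 10%, where 37.1% and 34.2% of all unshared peaks did. Exons and introns were not told apart here, and 6 genes from a chosen list do not stand for a class.

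**Figure D5:**
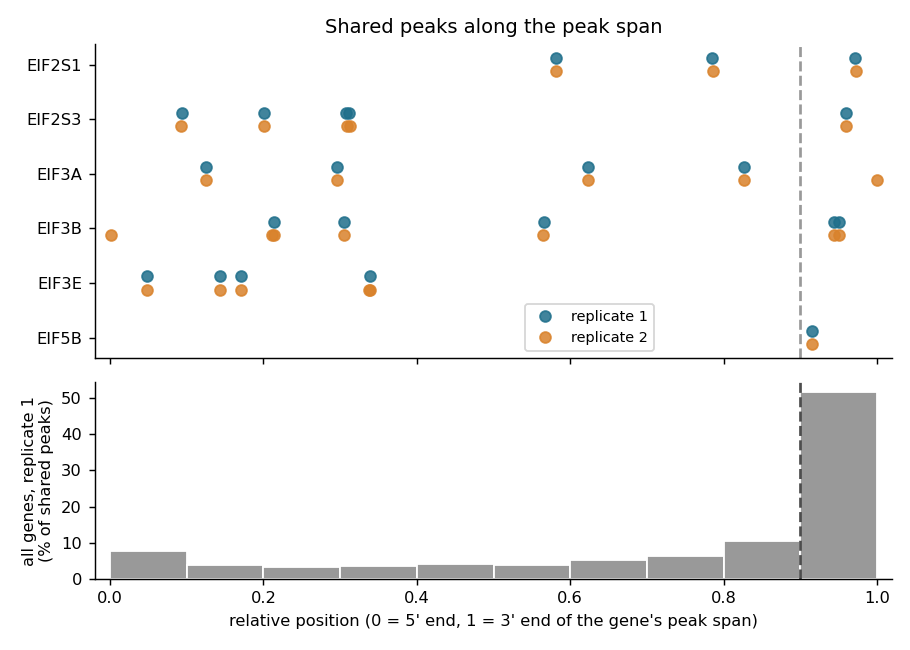
Relative position of shared peaks in the 6 genes with stretches of 10 kb or more (top, a point per peak, replicate 1 above replicate 2) and the distribution for all genes in replicate 1 (bottom, percent of shared peaks per 10% of the stretch). The dashed line marks 0.9; 5 of 22 member peaks of replicate 1 lie beyond it, and 51.8% of all shared peaks do.

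Some member peaks were very narrow. Widths ran from 4 to 121 nt in replicate 1 and from 1 to 109 nt in replicate 2, with medians of 37 and 34 nt, where the whole lists had 42 and 39 nt. Under 10 nt there were 7 member peaks in replicate 1, or 9.09%, and 8 in replicate 2, or 11.1%, where the whole lists had 5.06% and 7.30%. Of these narrow peaks 3 and 1 were shared. Peaks of 1 nt occurred in EIF3A and EIF3E, each with a tally of 3 and a touching or near neighbour. A tally did not fix the p of a peak: among the 11 member peaks with a tally of 8, the authors' p ran from 6.29e-06 in EIF5A to 0.0016 in EIF2S3. The running numbers in the names followed the position along the gene, and they skipped 4 values among the member peaks of replicate 1 and 3 among those of replicate 2. What the skipped numbers stood for is not known. A number skipped in EIF1 in replicate 1 fell where replicate 2 had an unshared peak, at 39846340 to 39846378 with a tally of 5. A number skipped in EIF3E in replicate 2 fell in the stretch where replicate 1 had unshared peaks at 109241343 to 109241401 and 109243169 to 109243229, with tallies of 7 and 8. The numbers skipped in EIF2S1, EIF5, EIF5A and EIF5B faced no unshared peak. In all, 2 of 40 unshared member peaks of replicate 1 and 1 of 34 of replicate 2 faced a skipped number. No such share was computed over the whole lists.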

How the data were processed

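Each library had its own deposited peak list. The submitters' processing notes name STAR 2.3.0e, Bowtie 1.0.0, cutadapt and the build hg19. The list names record poly(A) and adapter trimming and removal of duplicates, and no name of a peak caller was given in the sources used here. Each deposited p-value is the authors' own, was below 0.05, and may or may not be corrected. Depth is unknown: tallies summed to 155598 and 133644 over the whole lists. The labels number the replicates without naming separate cultures, so differences between them may be technical.

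Members were all peaks under the 10 gene IDs, and for each gene the shared pair with the lowest p in the weaker replicate was to be named, with unshared peaks of tally 10 or more (there were none). The members and lists were chosen with earlier results of these data known. With 1 group of 2 libraries no test was run. Shares carry 95% Clopper-Pearson intervals. A further list of initiation factors, given by symbol, was not used, since no table paired symbols with these IDs. Overlap calling was tested on simulated peaks placed far apart, without touching peaks or partners split into a pair. Python 3.11.15 was used with pandas 2.3.3, NumPy 2.4.6, matplotlib 3.10.9 and SciPy 1.17.1.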

Additional observations from a re-analysis of the deposited data

How the results depend on the processing

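Of 44 recomputed values, 38 stayed within the interval or within 1.5 times the value given. Some of the 44 could not move. Joining peaks within 50 nt keeps summed tallies, all partners already had the same gene ID, and a replicate alone counts only its own genes. The limit is also wide, since 6 genes with a shared peak in place of 9 stayed within it. Alternatives that left out narrow peaks or a gene, or counted the peaks that set an end, were chosen after seeing the data. A reciprocal overlap of 50% lowered the members' shared share to 33.8% in replicate 1 and 36.1% in replicate 2, where all peaks had 26.8% and 27.5%. Cuts by p or tally were made in both lists, so a partner below the cut no longer counted. In the strongest 10% by p the shared share was 88.9% of 9 member peaks in replicate 1 and 64.3% of 14 in replicate 2. All peaks had 55.1% and 57.1%. With a tally of 5 or more in both lists it was 47.6% of 42 and 67.7% of 31, where all peaks had 43.7% and 56.2%. These shares are therefore not comparable with the shares by tally given above, where a partner of any tally counted. The log2 ratio of the members' summed tallies, replicate 2 over replicate 1, was 0.03 (-0.16 to 0.22). This interval does not cover differences between libraries or between genes, whose own ratios ran from -1.94 to 0.83. The ratio of the summed tallies was 0.58 in the strongest 10% by p, -0.19 without scaling and -0.07 without EIF3A. It therefore has no settled sign (the cause was not tested). Genes with peaks in both lists numbered 7 to 9 under the other list settings, and 9 and 10 with either replicate alone, and genes with a shared peak numbered 6 to 9. Over 4 alternatives, the shared peaks of replicate 1 in the 3′-most 10% ran from 5 of 25, with stretches of 5 kb or more, to 5 of 18, without EIF3E. No paired analysis was possible because there is 1 group. With median tallies of 5 and 4, a peak missing from a list may be a contact below its limit.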
